A study of Homo sapiens with 28 samples.

Results

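The 38 genes described here act in G2 phase and mitosis. They were taken by symbol from the 58735 genes of the count table, and all 38 passed the filter on low counts that left 17191 genes for testing. The study used MDA-MB-231 cells, an epithelial-derived human breast cancer line that carries no oestrogen receptor. The line labelled MDA-Tpm2.1 overexpresses Tpm2.1, a high-molecular-weight tropomyosin that coats actin filaments and is a product of TPM2, and the line labelled MDA-EV carries an empty vector. Both lines were grown in medium with 10% serum and puromycin, and each is represented by a single line. Cells were kept attached on culture plates for 6 hours or in suspension, on plates with an ultra-low attachment surface, with harvests after 5 hours and after 1, 2 and 4 days. Suspended Tpm2.1 cells were split at each time by beads that bind Annexin V, a protein that sticks to phosphatidylserine on dying cells, into an apoptotic fraction (bound) and a non-apoptotic fraction. This gave 14 groups of 2 libraries: attached Tpm2.1 cells, 4 apoptotic Tpm2.1 groups, 4 non-apoptotic Tpm2.1 groups, attached EV cells and 4 EV groups in suspension. No bead separation is stated for EV cells or attached cells, so in suspension the line and the separation cannot be told apart. In the titles the 2 libraries of each group are biological replicates, with nothing on how their cultures were set apart, and p-values here measure only the spread between these libraries.

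Cells enter mitosis when cyclin-dependent kinase 1, bound to cyclin A or cyclin B, is activated by CDC25 phosphatases, and leave it when the anaphase-promoting complex marks cyclin B and securin for destruction. The messenger RNAs of this machinery are periodic: they are low in G1, when the DREAM repressor complex sits on their promoters, and high in G2, when MuvB with MYBL2 and then FOXM1 activates them. Normal epithelial cells need contact with a matrix to pass through the cycle, and cells that stop cycling lose these transcripts. In RNA from a whole culture or fraction, fewer cells in G2 and mitosis and less of these RNAs per cell cannot be told apart.

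The promoters of such genes commonly hold a cell cycle genes homology region (CHR), bound by MuvB, and CCAAT boxes, bound by NF-Y. RefSeq promoters of the GRCh38.p14 build, from 250 bases before to 50 bases after the start, were given for 31 of the 38 genes, all but FOXM1, AURKA, BIRC5, TPX2, BUB3, TTK and UBE2C. The CHR letters TTTGAA, searched on both strands, stood in 21 of these 31 promoters (67.7%) and in 5324 of all 35116 promoters of that length (15.2%). The letters CCAAT stood on either strand in 23 of the 31 (74.2%) and in 12155 of all promoters (34.6%). Both motifs stood in 17 of the 31 (54.8%), and in 2073 of all promoters (5.9%). At 4 days in suspension against attached cells, the 21 genes with and the 10 without a CHR in this window had median log2 fold changes of -2.84 and -2.62 in non-apoptotic Tpm2.1 cells, and of -1.65 and -1.83 in EV cells. The promoters of TOP2A, DLGAP5 and CENPA are shown because each of these genes has the highest mean level of its role per transcript length (FPKM) and holds both motifs. They lie at chr17:40417847-40418146 (minus strand, TOP2A), chr14:55191536-55191835 (minus strand, DLGAP5) and chr2:26785806-26786105 (plus strand, CENPA), and capitals mark both motifs on either strand (reverse complements, TTCAAA for the CHR and ATTGG for the CCAAT box).
TOP2A: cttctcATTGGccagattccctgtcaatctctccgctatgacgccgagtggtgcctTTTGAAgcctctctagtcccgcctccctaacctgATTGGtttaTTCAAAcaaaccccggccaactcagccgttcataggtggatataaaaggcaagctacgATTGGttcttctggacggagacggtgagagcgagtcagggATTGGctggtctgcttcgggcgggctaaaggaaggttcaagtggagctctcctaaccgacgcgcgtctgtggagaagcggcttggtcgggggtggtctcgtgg
DLGAP5: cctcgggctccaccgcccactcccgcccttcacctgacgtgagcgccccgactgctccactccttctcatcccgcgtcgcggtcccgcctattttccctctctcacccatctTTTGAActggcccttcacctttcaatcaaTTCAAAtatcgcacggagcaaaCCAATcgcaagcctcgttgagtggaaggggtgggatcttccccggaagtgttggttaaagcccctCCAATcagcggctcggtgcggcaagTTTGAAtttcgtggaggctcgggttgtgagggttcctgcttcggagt
CENPA: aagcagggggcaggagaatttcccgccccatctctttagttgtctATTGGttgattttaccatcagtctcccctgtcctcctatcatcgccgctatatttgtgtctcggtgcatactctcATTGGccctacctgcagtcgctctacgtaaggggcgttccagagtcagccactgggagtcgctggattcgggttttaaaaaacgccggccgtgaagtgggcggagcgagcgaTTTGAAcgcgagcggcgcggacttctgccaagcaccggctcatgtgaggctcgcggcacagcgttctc
A match says only that the letters are in this window. In the TOP2A promoter the 4 CCAAT letters begin 244, 160, 93 and 53 bases before the start, and the CHR letters 194 and 151 bases before it. In the CENPA promoter a single CHR match begins 18 bases before the start.

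Libraries held 13043529 to 27416335 counts in genes. TPM2 stood at 3242 and 3361 CPM (counts scaled to the TMM-normalized size of the library) in attached Tpm2.1 cells and 2461 to 7861 CPM in the suspended Tpm2.1 fractions, against 27.2 and 22.7 CPM in attached EV cells and 22.7 to 46.1 CPM in suspended EV cells. VIM, the vimentin gene that this line expresses strongly, stood at 743 to 1530 CPM, while CDH1 had 0 to 7 counts and ESR1 3 to 28 counts per library; of the leukocyte markers, PTPRC had 0 to 3 and CD3E 0 to 1. The apoptotic 4-day libraries stood apart from all others, at 193 and 189.9 on the first principal component against -52.3 to 33.8 in the other 26. They had counts for 18183 and 18676 genes, against a mean of 22065.5 in the non-apoptotic 4-day libraries, and mitochondrial mRNAs took 6.40% and 5.86% of their counts, against 1.25% and 1.55%.

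In attached cells the 38 genes were at nearly the same summed level in both lines, 10092 and 10067 CPM in Tpm2.1 cells and 10174 and 10171 CPM in EV cells. Per gene length, the highest mean levels over all libraries were those of UBE2C (129 FPKM), the ubiquitin-conjugating enzyme of the anaphase-promoting complex, TPX2 (107 FPKM), which activates Aurora kinase A on spindles, and CCNB1 (96.1 FPKM), which encodes cyclin B1. The lowest was PRC1 at 0.369 FPKM. PRC1, which bundles the microtubules of the central spindle, lies at chr15:90966038-90995629, and 57.6% of its exonic bases are shared with AC068831.7 on the same strand. NUSAP1, a microtubule-binding protein of the spindle, shares 62.2% of its exonic bases with AC087721.2. How reads were divided between such pairs is not stated, so the values of PRC1 and NUSAP1 are uncertain. Strand use in counting is not stated either, so antisense reads cannot be told apart in FOXM1 (15.9% of exonic bases lie opposite ITFG2), PLK1 (12.5%), CCNA2 (9.08%), CDC25C (8.78%) and PRC1 (7.35%, opposite PRC1-AS1).

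**Figure D1:**
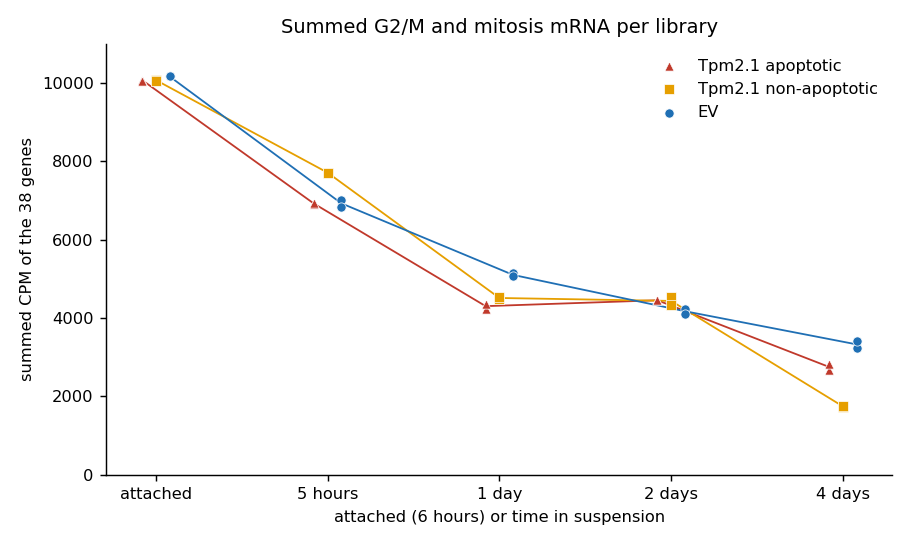
Summed CPM of the 38 genes (vertical axis) in each of the 28 libraries (points) against time from attached cells to 4 days in suspension, with lines through group means; the attached Tpm2.1 libraries start both the apoptotic (triangles) and the non-apoptotic (squares) series, and EV libraries are circles. Attached libraries lie between 10067 and 10174 CPM, and the lowest libraries are the non-apoptotic Tpm2.1 cells at 4 days (1727 and 1763 CPM).

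The lines differed in a few of these genes before cells were detached. In attached cells 4 genes were higher and 5 lower in Tpm2.1 than in EV cells at an adjusted p under 0.05 (edgeR quasi-likelihood test with Benjamini-Hochberg adjustment over all genes tested, as throughout), which is close to the 10.4% and 10.1% of all tested genes called in those directions. The median log2 fold change was -0.05 over the 38 genes and -0.000232 over all genes. MKI67, whose product Ki-67 coats mitotic chromosomes and marks cycling cells, had 1098 and 1105 CPM in Tpm2.1 cells and 812 and 791 CPM in EV cells. The log2 fold change was 0.46 ± 0.066, with its SE, at an adjusted p of 1.32e-06. TOP2A, the topoisomerase that untangles sister chromatids, went the other way, with 733 and 704 CPM in Tpm2.1 cells and 944 and 969 CPM in EV cells (-0.41 ± 0.06, adjusted p = 2.07e-06). Neither gene's pairs of values overlapped between the lines. The other genes higher in Tpm2.1 cells were CENPF (0.24), CDC25B (0.22) and FOXM1 (0.14), and the others lower were AURKA (-0.22), BUB3 (-0.20), UBE2C (-0.19) and DLGAP5 (-0.16). TTK, a checkpoint kinase, had the smallest difference (64.7 and 62.1 CPM in Tpm2.1 cells, 63.4 and 63.4 CPM in EV cells). The 9 calls became 5 without either EV library or without Tpm2.1 replicate 2 and 6 without Tpm2.1 replicate 1, and a fit on these 4 libraries alone gave 18 (7 higher, 11 lower).

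In EV cells the G2 and mitosis genes fell with time in suspension, and nearly all of them together. At 5 hours and 1, 2 and 4 days, 34, 37, 38 and 38 of the 38 genes were lower than in attached EV cells, and none was higher at any time; of all tested genes, 28.7%, 30.3%, 31.3% and 28% were called lower and 26%, 32.7%, 33.3% and 31.6% higher. Their median log2 fold changes were -0.53, -1.07, -1.39 and -1.68, while the median over all tested genes lay between 0.0161 and 0.0708. Summed over the members, CPM came to 68.1%, 50.2%, 41.1% and 32.7% of the attached level at these times, and summed FPKM to 63.4%, 45.2%, 37% and 29.8%. For 33 of the 38 the mean CPM was lower at every successive time, and 2, 22, 29 and 36 genes had lost at least 1 log2 unit. The shares of all tested genes for these counts were not computed. All 4 comparisons share the attached EV libraries, which were held for 6 hours. In the table's headers the attached libraries of both lines are numbered 3 and 4 and all suspended ones 1 and 2, and whether they were made in the same round is not given. In every comparison of suspended with attached cells, any difference between rounds and the suspension itself cannot be told apart. No group of either line was attached for 1, 2 or 4 days, so at these times longer culture and suspension cannot be told apart either.

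Among the regulators of mitotic entry, CCNB1 had 435 and 440.4 CPM in attached EV cells, 316 and 305 CPM at 5 hours, 239 and 232 CPM at 1 day, 174 and 161 CPM at 2 days and 136 and 135 CPM at 4 days. The pairs of libraries at successive times did not overlap, and the log2 fold change at 4 days was -1.69 ± 0.055 (adjusted p = 1.41e-25). CDK1, its kinase partner, had by then a log2 fold change of -1.46, CCNA2 (cyclin A2) of -2.10, CCNB2 (cyclin B2) of -1.61, and PLK1, the polo-like kinase that promotes entry and spindle formation, of -2.45. CDC25B, a phosphatase that starts CDK1 activation, changed least of all 38 genes at each time. It had 259 and 258 CPM in attached EV cells, 249 and 253 CPM at 5 hours, 237 and 236 CPM at 1 day, 219.8 and 231 CPM at 2 days and 174 and 169 CPM at 4 days. Its log2 fold changes at 5 hours and 1 day, -0.04 and -0.13, did not pass the test (adjusted p = 0.596 and 0.0809), and those at 2 and 4 days, -0.20 and -0.59, did. CDC25C, which acts at entry itself, had a log2 fold change of -1.35 at 4 days, and the transcription factor FOXM1 of -1.38.

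The strongest fall in EV cells was that of CDC20, the activator of the anaphase-promoting complex at the metaphase to anaphase transition. CDC20 had 399.6 and 389 CPM in attached EV cells, 185 and 186 CPM at 5 hours, 125 and 118 CPM at 1 day, 90.6 and 90.3 CPM at 2 days and 68.9 and 64.7 CPM at 4 days. Its log2 fold change at 4 days was -2.56 ± 0.068 (adjusted p = 3.38e-28). UBE2C, its partner enzyme, had 375 and 369.9 CPM in attached EV cells, 219 and 224 CPM at 5 hours, 162 and 157 CPM at 1 day, 124 and 128 CPM at 2 days and 118 and 117 CPM at 4 days. The fall of UBE2C had largely ended by 2 days, with log2 fold changes of -1.56 then and -1.67 at 4 days. PTTG1, which encodes securin, fell by 1.59 log2 units at 4 days.

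Among the roles, cytokinesis genes had the lowest median log2 fold change at 5 hours, -0.91, against -0.53 over all members. ECT2, the exchange factor that activates RhoA at the division site, had 318 and 311 CPM in attached EV cells, 131 and 135 CPM at 5 hours, 140.2 and 141 CPM at 1 day, 139 and 139 CPM at 2 days and 134 and 133 CPM at 4 days. Its whole fall had taken place by 5 hours (-1.24 ± 0.052, adjusted p = 1.88e-21), the largest change of any member at that time, and the value at 4 days was again -1.24. ANLN (anillin, a scaffold of the contractile ring) and KIF23 (a kinesin of the central spindle) had reached 68.7% and 64.6% of their 4-day loss of CPM at 5 hours. Over the 38 genes the median of that share was 48.7%, and it was lowest for CDC25B (8.84%), MKI67 (10.1%) and CENPF (13.2%). At 5 hours neither MKI67 (-0.11) nor CENPF (-0.13), a large kinetochore protein, passed the test, nor did PRC1 (-0.25).

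The 4 Aurora and passenger genes fell by 1.91 log2 units in the median at 4 days: AURKA, a centrosome kinase (-1.97), and AURKB, the kinase of the chromosomal passenger complex (-1.96), TPX2 (-1.86) and BIRC5, which encodes the passenger protein survivin (-1.75). Spindle checkpoint genes fell by 1.51 in the median. BUB3, which carries the BUB1 proteins to kinetochores, changed least of them at 2 and 4 days, with 543 and 546 CPM in attached EV cells, 387 and 372 CPM at 5 hours, 287 and 299.7 CPM at 1 day, 273 and 273 CPM at 2 days and 278 and 284 CPM at 4 days. From 1 day on BUB3 hardly moved, with log2 fold changes of -0.89 then and -0.95 at 4 days. Kinetochore and centromere genes fell by 1.86 in the median at 4 days and spindle genes by 1.64, among them KIF2C, a kinesin that takes microtubules apart (-1.87), and KIF11, the kinesin that pushes spindle poles apart (-1.65). TOP2A, with 944 and 969 CPM in attached EV cells, 752 and 709 CPM at 5 hours, 601 and 582 CPM at 1 day, 517 and 483 CPM at 2 days and 355 and 389 CPM at 4 days, had a log2 fold change of -1.36 at the last time, and its pairs did not overlap.

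**Figure D2:**
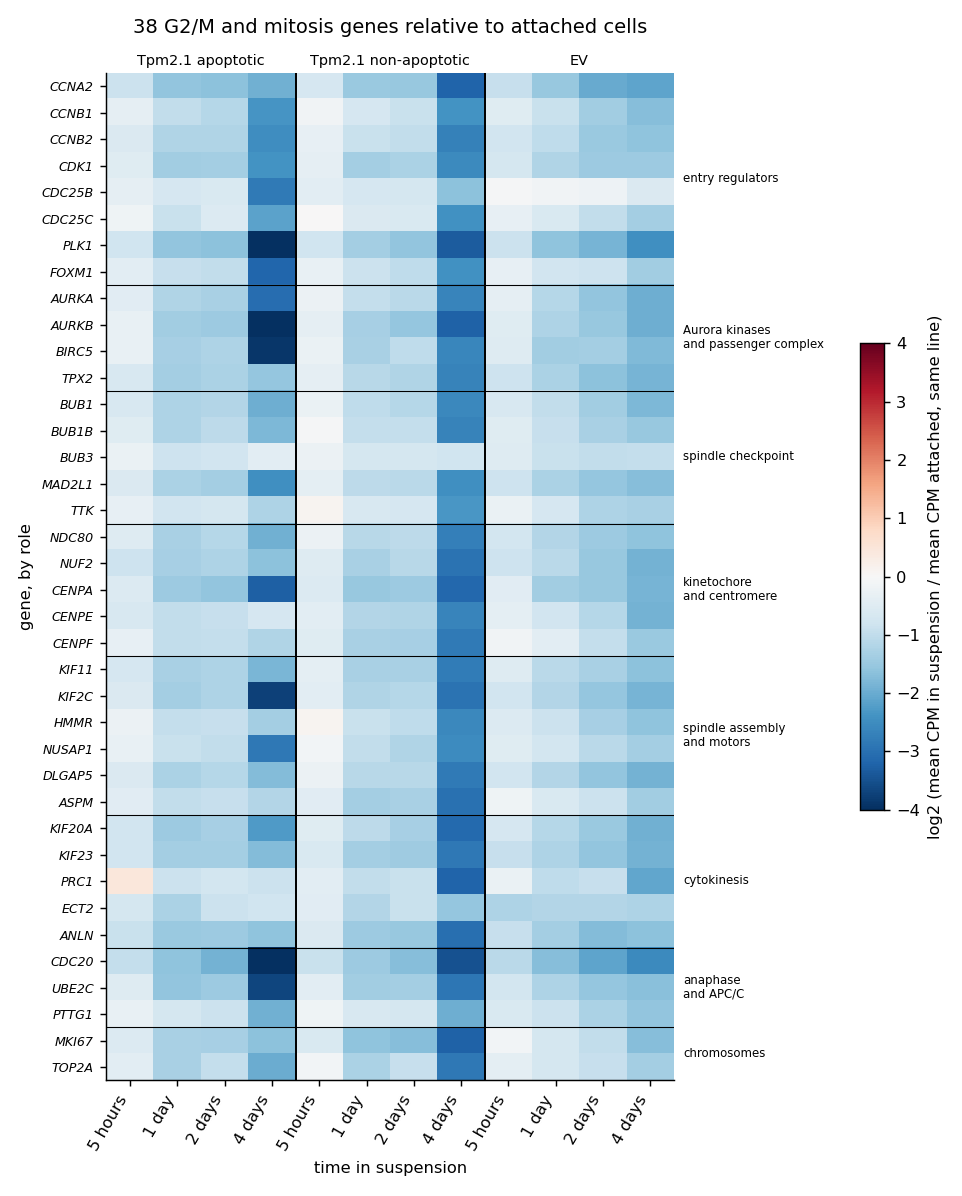
Log2 ratio of mean CPM in suspension to mean CPM in attached cells of the same line (colour) for each of the 38 genes (rows, by role), for the apoptotic and non-apoptotic Tpm2.1 fractions and EV cells at the 4 times in suspension (columns). Colour runs from blue (lower than attached) to red (higher); nearly all tiles are blue, BUB3 is the palest row at 4 days in both Tpm2.1 series and CDC25B in EV cells, and PRC1 is red in apoptotic cells at 5 hours.

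Non-apoptotic Tpm2.1 cells lost these transcripts in 2 drops with a level stretch between them. Against attached Tpm2.1 cells, 31, 38, 38 and 38 of the 38 genes were lower at 5 hours and 1, 2 and 4 days, and none was higher; of all tested genes 24.5%, 27%, 27.6% and 29.8% were called lower and 20.7%, 27.8%, 29.2% and 32.6% higher. Median log2 fold changes were -0.38, -1.14, -1.12 and -2.72, against 0.00349 to 0.0424 over all tested genes. Summed CPM stood at 76.5%, 44.8%, 44% and 17.3% of the attached level, and summed FPKM at 76.5%, 44.4%, 43.1% and 15.9%. These 4 comparisons share the attached Tpm2.1 libraries, which are numbered apart from the suspended ones as in EV cells.

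The steps between times were tested directly. From 5 hours to 1 day 37 of the 38 genes fell and none rose in non-apoptotic cells (19.1% and 21.7% of all tested genes), by 0.77 log2 units in the median. From 1 to 2 days 6 genes fell and 3 rose (of all tested genes, 5.25% and 6.90%), those that rose being BIRC5 (0.28), ECT2 (0.28) and TOP2A (0.33). The count of 9 was 3 without 1-day replicate 1, 5 without 1-day replicate 2, 8 without 2-day replicate 1, 3 without 2-day replicate 2 and 4 (3 higher, 1 lower) in a fit on these libraries alone. From 2 to 4 days 37 of the 38 fell and none rose (16.1% and 18% of all tested genes), by 1.56 log2 units in the median, and BUB3 (-0.09) did not pass. In EV cells 33, 30 and 26 genes fell over the same 3 steps (18.6%, 9.99% and 16.7% of all tested genes) and none rose (20.8%, 9.25% and 22.3%), with medians of -0.42, -0.36 and -0.34.

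CDC20 again fell furthest. It had 358 and 358 CPM in attached Tpm2.1 cells, 191 and 192 CPM in non-apoptotic cells at 5 hours, 138 and 122 CPM at 1 day, 119.7 and 98.8 CPM at 2 days and 32.5 and 31.2 CPM at 4 days. The log2 fold change at 4 days was -3.49 ± 0.075 (adjusted p = 1.29e-31), and every 4-day value lay below every earlier one. CCNB1 had 416 and 427 CPM in attached Tpm2.1 cells, 377 and 383 CPM at 5 hours, 263 and 261 CPM at 1 day, 238 and 216 CPM at 2 days and 81.2 and 80.9 CPM at 4 days, a last log2 fold change of -2.38. PLK1 (-3.34), MKI67 (-3.23), AURKB (-3.23) and CCNA2 (-3.21) came next after CDC20.

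At 1 day the largest fall was that of MKI67. It had 1098 and 1105 CPM in attached Tpm2.1 cells, 733 and 713 CPM at 5 hours, 353 and 376 CPM at 1 day, 357 and 323 CPM at 2 days and 110.3 and 124 CPM at 4 days. TOP2A hardly moved at 5 hours but stood far lower at 1 day, with 733 and 704 CPM in attached Tpm2.1 cells, 665 and 679.6 CPM at 5 hours, 277 and 322 CPM at 1 day, 379 and 376 CPM at 2 days and 96.8 and 99.7 CPM at 4 days. Its 5-hour change (-0.10) did not pass the test, and its 1-day change was -1.26.

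The 7 genes that did not pass at 5 hours in these cells were TTK (0.11), BUB1B (-0.05), which encodes the checkpoint protein BubR1, HMMR (0.10), a spindle-associated protein, NUSAP1 (-0.10), CDC25C (0.00), PRC1 (-0.43) and TOP2A. CDC25C was the member that changed least at the first 3 times, with 29.1 and 29.3 CPM in attached Tpm2.1 cells, 27.6 and 30.8 CPM at 5 hours, 19.9 and 19.1 CPM at 1 day, 19 and 19.5 CPM at 2 days and 5.34 and 5.54 CPM at 4 days. At 4 days that place was taken by BUB3 with 283 and 262 CPM, against 469 and 480.4 CPM in attached Tpm2.1 cells (-0.80 ± 0.051, adjusted p = 6.11e-17).

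The remaining role leaders also stood lowest at 4 days. TPX2 had 764 and 762 CPM in attached Tpm2.1 cells, 589 and 588 CPM at 5 hours, 347 and 358 CPM at 1 day, 336 and 326 CPM at 2 days and 117 and 120.1 CPM at 4 days. CENPA, the histone variant that marks centromeres, had 84 and 84.9 CPM in attached Tpm2.1 cells, 57.4 and 58.8 CPM at 5 hours, 29.4 and 29.8 CPM at 1 day, 30.5 and 31.1 CPM at 2 days and 8.97 and 10.4 CPM at 4 days. DLGAP5, which stabilises the fibres that pull on kinetochores, had 280.4 and 269 CPM in attached Tpm2.1 cells, 233 and 235 CPM at 5 hours, 129 and 124 CPM at 1 day, 123 and 132 CPM at 2 days and 38.3 and 39 CPM at 4 days. ANLN had 517 and 526 CPM in attached Tpm2.1 cells, 355 and 349 CPM at 5 hours, 194 and 188 CPM at 1 day, 181 and 185 CPM at 2 days and 62.1 and 67.7 CPM at 4 days. UBE2C had 328 and 324 CPM in attached Tpm2.1 cells, 244 and 245 CPM at 5 hours, 126 and 123 CPM at 1 day, 132 and 122 CPM at 2 days and 40.3 and 47 CPM at 4 days. In each of these genes the 4-day pair lay below all the others, and the 1-day and 2-day pairs lay close to or across each other.

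Genes that act in one complex or step can be set side by side at 4 days in suspension against attached cells. NDC80 and NUF2, which pair in the complex that holds microtubules at kinetochores, had 16.1 and 17.4 CPM and 8.22 and 8.56 CPM in non-apoptotic Tpm2.1 cells, against 113 and 108 CPM and 64.5 and 64.9 CPM in attached ones, at log2 fold changes of -2.72 and -2.95. In EV cells at 4 days the same genes were at -1.60 and -1.88. KIF20A and KIF23, the kinesins of the central spindle, were at -3.10 and -2.86 in non-apoptotic Tpm2.1 cells and at -1.91 and -1.88 in EV cells. CCNB1 and CCNB2, which encode the B-type cyclins, were at -2.38 and -2.71 in non-apoptotic Tpm2.1 cells and at -1.69 and -1.61 in EV cells. Of the CDC25 phosphatases, CDC25B was at -1.63 and CDC25C at -2.42 in non-apoptotic Tpm2.1 cells, and at -0.59 and -1.35 in EV cells. FOXM1 had 57.9 and 56.3 CPM in non-apoptotic Tpm2.1 cells at 4 days and 309 and 302 CPM in attached ones (-2.42), with no overlap between them.

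**Figure D3:**
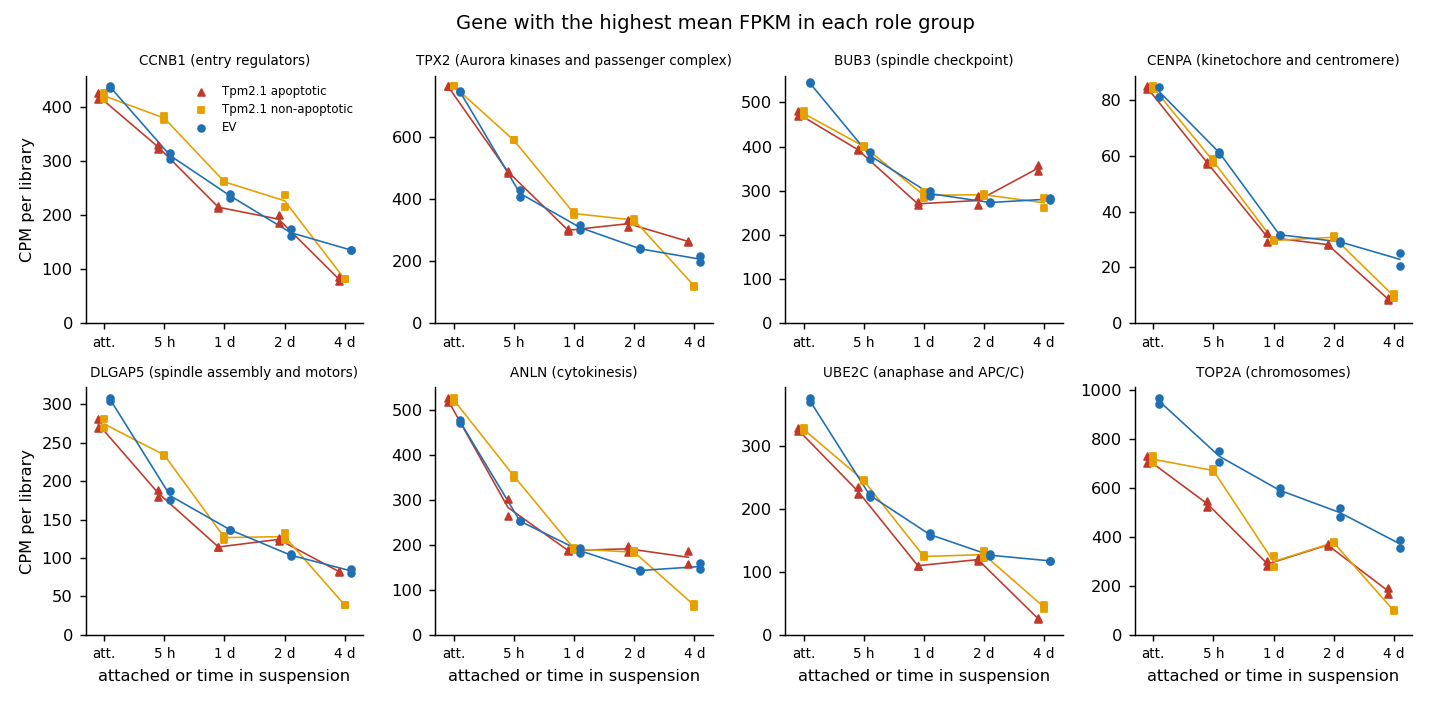
CPM (linear axis from 0) of the member with the highest mean FPKM in each role, against time in suspension from attached cells to 4 days, for apoptotic and non-apoptotic Tpm2.1 cells and EV cells; points are libraries and lines join group means. At 4 days non-apoptotic cells lie below EV cells in every panel but that of BUB3, where their ranges overlap, and apoptotic cells lie above non-apoptotic ones for TPX2, BUB3, DLGAP5, ANLN and TOP2A and below them for UBE2C.

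Set against EV cells at the same time, non-apoptotic Tpm2.1 cells had most of these genes higher at 5 hours and 2 days and nearly all lower at 4 days. At 5 hours 23 genes were higher and 1 lower than in EV cells (20.4% and 20.4% of all tested genes), with a median log2 fold change of 0.24. At 1 day 3 were higher and 11 lower (19.7% and 20.3%), with a median of -0.09, so calls were no more frequent among the members than over all genes at that time. At 2 days 21 were higher and 4 lower (23.3% and 21.1%), with a median of 0.25, and at 4 days none was higher and 37 were lower (20.2% and 23.8%), with a median of -1.06. All-gene medians at these times ran from -0.0326 to 0.00519. When the trend with GC content was removed, the 5-hour split was 21 higher and 4 lower. The shares of all tested genes given here are those before that removal. At 5 hours and 1 and 2 days mitochondrial mRNAs took 1.53%, 1.48% and 1.27% of counts in non-apoptotic Tpm2.1 cells and 3.14%, 4.23% and 3.97% in EV cells (group means), and their part in the difference was not tested.

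The change with suspension in non-apoptotic Tpm2.1 cells minus that in EV cells takes the difference between the attached cultures into account, and all 4 attached libraries, numbered apart from the rest, enter it. This difference of changes passed as positive in 22 genes and negative in 4 at 5 hours (15.0% and 13.8% of all tested genes), with a median of 0.32. It passed in 5 and 7 genes at 1 day (13.5% and 13.2%; median -0.02), in 21 and 4 at 2 days (18.3% and 16.1%; median 0.27), and in 0 and 36 at 4 days (12.8% and 15.6%; median -1.07). The 1-day split turned to 8 positive and 7 negative with DESeq2 or its size factors and to 0 and 8 on protein-coding genes alone, and the 12 calls became 6 without either attached EV library or 1-day EV replicate 2, 7 without either attached Tpm2.1 library or 1-day non-apoptotic replicate 1, and 8 to 10 without either other library. For 17 genes the difference was positive at 5 hours and 2 days and negative at 4 days. The shares of all tested genes with this pattern, or with a negative difference at all 4 times, were not computed.

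ECT2 differed most at 5 hours. Non-apoptotic Tpm2.1 cells had 235 and 230.0 CPM and EV cells 131 and 135 CPM, after nearly equal attached values of 317 and 322 CPM in Tpm2.1 cells and 318 and 311 CPM in EV cells. The difference of changes was 0.79 ± 0.072 (adjusted p = 1.62e-10). By 1 day non-apoptotic cells had 146 and 136 CPM and EV cells 140.2 and 141 CPM, so the ranges overlapped, and the difference was -0.02 (adjusted p = 0.891). All 5 spindle checkpoint genes (BUB1 0.37, BUB1B 0.45, BUB3 0.27, MAD2L1 0.41, TTK 0.36) had a positive difference that passed at 5 hours, and all 5 again at 2 days (0.26, 0.36, 0.29, 0.45 and 0.56 in the same order).

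MKI67, CENPF, ASPM and CDC25B went against this: they were the only members whose difference was negative, and passed, at all 4 times. For MKI67 it was -0.50, -0.89, -0.72 and -1.52 over the 4 times in order (adjusted p at the last = 2.35e-15). For ASPM, a protein of spindle poles, it was -0.27, -0.75, -0.47 and -1.57 at the same times. MKI67, CENPF and CDC25B were also among the 4 members higher in attached Tpm2.1 than in attached EV cells, and the values of the attached libraries enter these differences. MKI67, CENPF and ASPM have the longest transcripts of the members, and across the 38 genes the difference went down with transcript length at 5 hours, 1 day and 2 days (Pearson's r -0.57, -0.69 and -0.65, Spearman's rho -0.25, -0.28 and -0.41), which was not tested as a part of these calls. MKI67 CPM in suspension itself overlapped between the lines at 5 hours (733 and 713 in non-apoptotic cells, 759 and 729.6 in EV cells) and not at 4 days (110.3 and 124 in non-apoptotic cells, 225 and 263 in EV cells).

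At 4 days TOP2A was the member furthest apart between the lines, with 96.8 and 99.7 CPM in non-apoptotic Tpm2.1 cells and 355 and 389 CPM in EV cells (-1.92 ± 0.068, adjusted p = 3.69e-24). UBE2C, after ASPM (-1.46) and PRC1 (-1.45), had 40.3 and 47 CPM in non-apoptotic and 118 and 117 CPM in EV cells (-1.43). BUB3 was the one member that did not pass, with 283 and 262 CPM in non-apoptotic and 278 and 284 CPM in EV cells (-0.04, adjusted p = 0.521). Mitochondrial mRNAs took 1.40% ± 0.211 of counts in these non-apoptotic libraries and 1.2% ± 0.11 in the EV libraries (SD, n = 2 each), and the ranges overlapped.

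**Figure D4:**
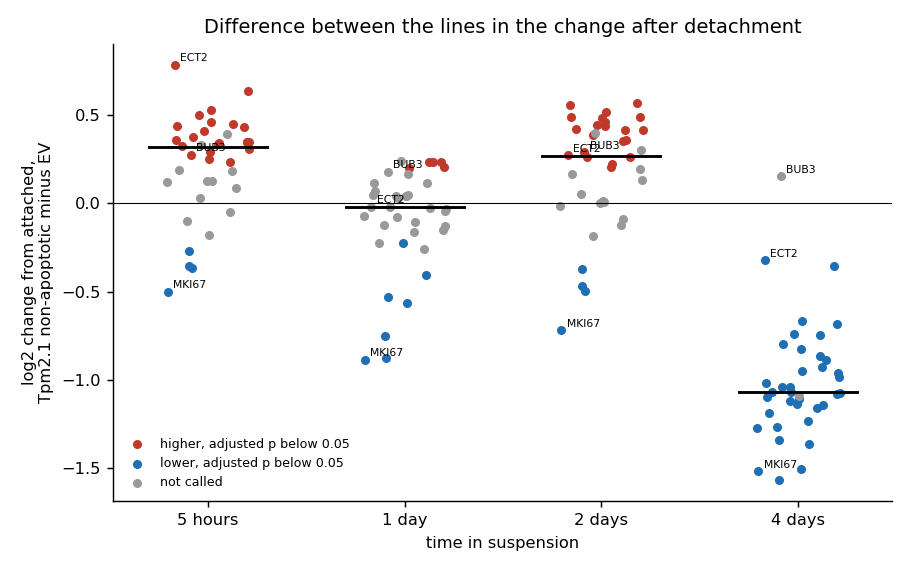
Change with suspension in non-apoptotic Tpm2.1 cells minus that in EV cells (log2) for each of the 38 genes at 5 hours and 1, 2 and 4 days. Points are genes (red higher, blue lower, grey not called), bars are medians, and ECT2, MKI67 and BUB3 are named. The cloud lies mostly above 0 at 5 hours and 2 days, about 0 at 1 day and below 0 at 4 days, where the median is -1.07.

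Within Tpm2.1 cultures the apoptotic and non-apoptotic fractions were close until 2 days. Summed CPM in apoptotic cells was 6909 and 6943 at 5 hours, 4245 and 4367 at 1 day and 4453 and 4459 at 2 days; in non-apoptotic cells it was 7718 and 7712, 4500 and 4529, and 4532 and 4347 at the same times. At 5 hours 1 gene was higher and 18 lower in the apoptotic fraction (9.66% and 11.8% of all tested genes), with a median log2 fold change of -0.18 against 0.00351 over all genes. When the trend with GC content was removed, the split was 2 higher and 11 lower. The shares of all tested genes given here are those before that removal. At 1 day 3 were higher and 10 lower (7.99% and 11.3%; median -0.09), and at 2 days 4 were higher and 5 lower (6.92% and 9.71%; median -0.04). The 2-day count of 9 was 6 (4 higher, 2 lower) without non-apoptotic replicate 1, 3 without apoptotic replicate 1, 8 to 9 without either other library, and 4 (4 higher) in a fit on these libraries alone. Mitochondrial mRNAs took 4.61%, 4.23% and 3.40% of counts in apoptotic cells at 5 hours and 1 and 2 days and 1.53%, 1.48% and 1.27% in non-apoptotic cells (group means), and their part in these differences was not tested.

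The 18 genes lower at 5 hours included BUB1B (-0.43), TTK (-0.42) and BUB1 (-0.36) of the checkpoint, DLGAP5 (-0.34), TOP2A (-0.33) and TPX2 (-0.27). For TOP2A the values were 547 and 525 CPM in apoptotic and 665 and 679.6 CPM in non-apoptotic cells, and for TPX2 490.2 and 484 CPM in apoptotic and 589 and 588 CPM in non-apoptotic cells. Neither gene's ranges overlapped. CCNB1, CCNB2 and AURKA stayed lower in the apoptotic fraction at 1 and 2 days, CCNB1 with log2 fold changes of -0.22, -0.29 and -0.24 at 5 hours and 1 and 2 days. In the opposite direction CENPF (0.33 at 1 day, 0.39 at 2 days), ASPM (0.36 and 0.38) and MKI67 (0.31 and 0.36) were higher in the apoptotic fraction at both of these times, and CENPE, a kinesin that carries chromosomes, at 2 days (0.29). These 4 genes have the longest transcripts of the members, from 8612 to 12678 bases, and across the 38 genes the fraction difference went up with transcript length at 1 day (Pearson's r 0.66, Spearman's rho 0.33) and 2 days (r 0.70, rho 0.54), a description across genes in the same libraries. The part of length in these calls was not tested. MKI67 had 464 and 409 CPM in apoptotic and 357 and 323 CPM in non-apoptotic cells at 2 days. The gene higher at 5 hours was PRC1, with 3.97 and 3.92 CPM in apoptotic and 2.42 and 1.89 CPM in non-apoptotic cells, a gene whose counts are uncertain.

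At 4 days the fractions parted. Summed CPM was 2680 and 2825 in apoptotic and 1727 and 1763 in non-apoptotic cells, and 22 genes were higher and 9 lower in the apoptotic fraction, where 35.3% and 36.8% of all tested genes were called in these directions. The median log2 fold change was 0.70 over the members and 0 over all genes. Of the 22, 13 exceeded 1 log2 unit. MKI67 had 329 and 373 CPM in apoptotic and 110.3 and 124 CPM in non-apoptotic cells (1.58 ± 0.073, adjusted p = 2.47e-21). CENPE had 80.4 and 98.8 CPM in apoptotic and 21.9 and 24.3 CPM in non-apoptotic cells (1.96 ± 0.094). For both genes the apoptotic values were far above the non-apoptotic ones. PRC1 had the largest value (2.32 ± 0.54), at 1.27 and 1.94 CPM in apoptotic and 0.342 and 0.288 CPM in non-apoptotic cells. ASPM (1.80), CENPF (1.63), ANLN (1.41), NUF2 (1.31), a subunit of the Ndc80 kinetochore complex, and CCNA2 (1.28) came next.

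The 9 genes lower in the apoptotic fraction at 4 days were CDC20, AURKB, BIRC5, CDC25B, PLK1, UBE2C, KIF2C, FOXM1 and AURKA. CDC20 had 9.69 and 10.7 CPM in apoptotic and 32.5 and 31.2 CPM in non-apoptotic cells (-1.64 ± 0.12, adjusted p = 1.2e-15). AURKB had 7.06 and 5.74 CPM in apoptotic and 17 and 20.6 CPM in non-apoptotic cells (-1.55), and BIRC5 13.4 and 13.8 CPM in apoptotic and 32.7 and 33.6 CPM in non-apoptotic cells (-1.28). By role, all 5 cytokinesis genes, 4 of 5 checkpoint genes, 4 of 5 kinetochore and centromere genes and both chromosome genes were higher, and 3 of the 4 Aurora and passenger genes and 2 of the 3 anaphase genes were lower. Much of this split by role was lost when the trend with GC content over all genes was removed: no checkpoint gene was then called higher and 3 of 5 were called lower, 2 kinetochore and centromere genes were called higher and 2 lower, and of the chromosome genes MKI67 was called higher and TOP2A lower. Of the cytokinesis genes 4 were still called higher and ECT2 was called lower, and the counts of lower Aurora and passenger genes and anaphase genes were again 3 and 2. These calls are against 0, and with the trend removed 15.9% of all tested genes were called higher and 43.0% lower. MAD2L1, a checkpoint protein, had the smallest difference (24.4 and 22.9 CPM in apoptotic, 24.6 and 22.5 CPM in non-apoptotic cells). CCNB1 (0.01), CDK1 (0.14), CDC25C (0.28), CENPA (-0.15), NUSAP1 (-0.32) and PTTG1 (0.02) did not pass either.

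Base composition moved with this split. Across the 38 genes the 4-day fold change went down with the GC content of the longest transcript (Spearman's rho -0.65 and Pearson's r -0.73, across genes, which are not independent replicates) and up with its length (rho 0.57). CDC20 has 57.9% GC in 1777 bases, CENPE 35.3% GC in 8612 bases. When the trend with GC content over all genes was removed, 10 members were higher and 18 lower, against 15.9% and 43.0% of all tested genes. That correction moved the median over all genes to -0.30, and the median over the members was -0.15, or 0.16 above the median of all genes. Relative to that all-gene median, 24 members lay above and 14 below. MKI67 (1.57), TPX2 (0.97), CENPE (0.93), CENPF (0.91), ASPM (0.87) and KIF20A (0.84), a kinesin of the cytokinesis step, lay furthest above it besides PRC1 (2.29), and all 7 were still called higher. BUB3 (-0.32), CCNB2 (-0.20) and ECT2 (-0.14), called higher before the correction, lay below it and were then called lower. NDC80 (0.03), TOP2A (0.04), BUB1 (0.06) and KIF11 (0.07) lay at it and were then called lower against 0. AURKB (-0.51), BIRC5 (-0.74) and CDC20 (-0.22) lay below it and were still called lower, while PLK1 and CDC25B were no longer called. In these same libraries mitochondrial mRNAs summed to 70790 to 76620 CPM in apoptotic and 13450 to 16700 CPM in non-apoptotic cells, and 7 nuclear-retained RNAs to 1967 to 2113 CPM in apoptotic and 863 to 968.5 CPM in non-apoptotic cells. Sums over 8 markers of epithelial cells and of this line, VIM among them, were alike (1655 to 1707 CPM in apoptotic, 1605 to 1629 CPM in non-apoptotic cells). Such a sum does not show single genes. In it KRT8 (-0.945) and ERBB2 (-1.29), the genes with the smallest p of that list, were lower in apoptotic cells with the GC trend removed. Beyond this correction, the part of these measures in the 4-day difference was not tested.

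**Figure D5:**
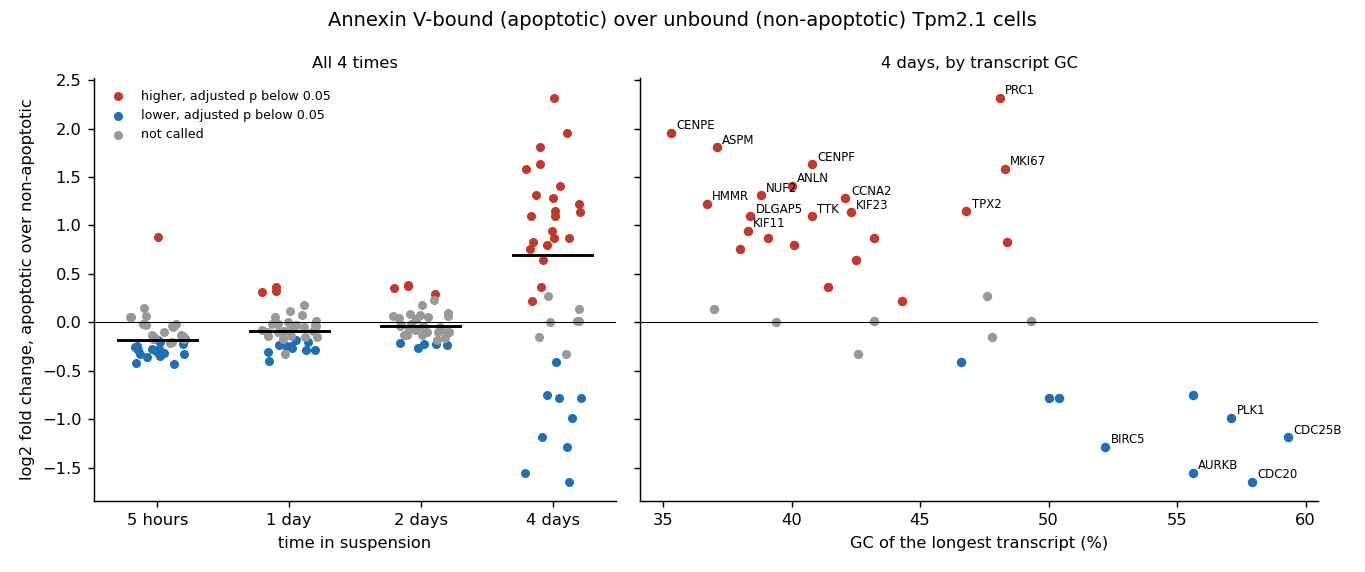
Left, log2 fold change of the apoptotic against the non-apoptotic fraction for each of the 38 genes at 5 hours and 1, 2 and 4 days; right, the 4-day values against the GC percent of the longest transcript. Values stay within 1 log2 unit of 0 up to 2 days and run from -1.64 (CDC20) to 2.32 (PRC1) at 4 days, falling with GC content.

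The 4-day fraction difference minus its mean over the earlier times passed as positive in 24 genes and negative in 9 (33.2% and 36.4% of all tested genes), with a median of 0.85. When the trend with GC content was removed, the split was 10 and 15, and the shares above are those before that removal. Of the 18 genes lower in the apoptotic fraction at 5 hours, 15 were higher at 4 days, and 5 members passed at none of the 4 times. The shares of all tested genes with these patterns were not computed. With the trend with GC content removed, 4 of these 15 were still called higher at 4 days (CCNA2, TPX2, KIF20A and ANLN), 6 were called lower (CCNB2, BUB1, NDC80, KIF11, ECT2 and TOP2A) and 5 were not called. These calls are against 0, where 15.9% of all tested genes were called higher and 43.0% lower and the all-gene median was -0.30. Of the 6, BUB1, NDC80, KIF11 and TOP2A lay at that median (0.03 to 0.07 above it), and CCNB2 and ECT2 below it. In apoptotic cells themselves all 38 genes were lower at 1 day than at 5 hours (18.2% of all tested genes, with 17.9% higher). From 1 to 2 days 2 rose, ECT2 (0.42) and TOP2A (0.34), and 1 fell, CDC20 (-0.28), against 7.48% and 5.14% of all tested genes. The split was 2 and 2 when the trend with GC content was removed, and these shares are those before that removal. At 4 days 34 genes were lower and 2 higher than at 2 days (40.3% and 34.3% of all tested genes), the higher ones being BUB3 (0.34) and CENPE (0.24). Both turned lower when the trend with GC content was removed (-0.67 and -1.11). CENPE had 80.4 and 98.8 CPM in apoptotic cells at 4 days and 78.4 and 72.9 CPM at 2 days, while AURKB had 7.06 and 5.74 CPM at 4 days and 62.7 and 64.9 CPM at 2 days. The lowest mean CPM of the 14 groups belonged to non-apoptotic cells at 4 days for 26 members. It belonged to apoptotic cells at 4 days for 11 and to apoptotic cells at 1 day for 1. These means were not corrected for the trend with GC content, and the share of all genes with each group lowest was not computed.

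Apoptotic cells were at 68.7%, 42.7%, 44.2% and 27.3% of the summed CPM of attached Tpm2.1 cells at 5 hours and 1, 2 and 4 days, and at 67.4%, 41.2%, 41.7% and 21% of their summed FPKM.

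Most members followed one course across the groups, with a few apart. Over the 14 group means of log2 CPM, the Pearson correlation of a gene with the mean of the other 37 had a median of 0.95, and 32 genes reached 0.9; the groups share lines and control cultures, and the value is a description. BUB3 (0.71), ECT2 (0.71), CENPE (0.81), CDC25B (0.81), PRC1 (0.84) and ASPM (0.89) were least alike, and NDC80, CCNB2, MAD2L1, BUB1 and KIF20A most (0.99 each). Without the apoptotic 4-day group the median was 0.98 and 36 genes reached 0.9, ECT2 (0.82) and BUB3 (0.83) not.

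A further 58 genes of G2 and mitosis, listed with these results in view, were also mostly lower in suspension. Of the 58, 41, 58, 58 and 58 were lower in non-apoptotic Tpm2.1 cells after 5 hours and 1, 2 and 4 days than attached (2 were higher at 5 hours), with medians of -0.31, -1.01, -1.01 and -2.57, and 55, 57, 58 and 58 in EV cells (1 was higher at 5 hours), with medians of -0.50, -0.87, -1.13 and -1.44. KIFC1, a minus-end-directed spindle kinesin, was at -3.05 in non-apoptotic cells at 4 days, and CDCA8, which encodes the passenger protein borealin, at -2.42 in EV cells. At 4 days 29 of the 58 were higher and 20 lower in the apoptotic than in the non-apoptotic fraction, among them SMC4, a condensin subunit (2.00), and UBE2S, an enzyme of the anaphase-promoting complex (-3.91), where 35.3% and 36.8% of all tested genes were called in these directions. With the trend with GC content removed, 10 of the 58 were higher and 27 lower, SMC4 at 0.77 and UBE2S at -3.15, against 15.9% and 43.0% of all tested genes. Of 30 genes of G1/S and replication, 17, 29, 29 and 29 were lower in non-apoptotic cells (3 higher at 5 hours, medians -0.19, -0.88, -0.91 and -2.04) and 28, 30, 30 and 30 in EV cells (1 higher at 5 hours, medians -0.66, -1.03, -1.06 and -1.06). For the counts of the 58 and the 30 genes against attached cells, the shares of all tested genes are those given above for the 38 genes. RRM2, a subunit of ribonucleotide reductase, reached -3.13 in non-apoptotic and -2.22 in EV cells at 4 days.

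Genes for the anaphase-promoting complex and for the regulators of these promoters had smaller median changes. Of 13 genes for the complex, its activator FZR1 and its inhibitor FBXO5, 7 were lower and 1 higher in non-apoptotic cells at 4 days (median -0.63), and 9 were lower and none higher in EV cells (median -0.26). FBXO5 fell furthest of them, with log2 fold changes of -2.15 in non-apoptotic and -1.39 in EV cells. Of 17 genes for DREAM, MuvB and NF-Y, 12 were lower and 2 higher in non-apoptotic cells at 4 days (median -0.50), and 10 and 1 in EV cells (median -0.37). Of all tested genes, 29.8% were called lower and 32.6% higher in non-apoptotic cells at 4 days, and 28% and 31.6% in EV cells. MYBL2, the activating partner of MuvB, had log2 fold changes of -0.65, -1.27, -1.48 and -2.93 in non-apoptotic Tpm2.1 cells and -1.03, -1.42, -1.71 and -1.76 in EV cells at 5 hours and 1, 2 and 4 days. E2F7, a repressor of E2F target genes, was higher in suspended than in attached EV cells at 5 hours (0.92), 1 day (0.41) and 2 days (0.49), and not at 4 days (0.02, adjusted p = 0.737).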

How the data were processed

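RNA from 28 libraries of MDA-MB-231 cells was sequenced after selection with poly-T beads and random priming, per the labels' protocols. The authors deposited raw counts per gene and FPKM per gene for the same libraries in whole-series tables. The build hg38 and the tool DESeq2 are named in the submitters' processing notes with no role, and no source used here gives the aligner, the counting program, its strand setting or its treatment of overlapping genes. Gene coordinates in the tables matched GENCODE annotation for all 38 genes.

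Counts were tested with edgeR 4.0.16 (R 4.3.3): TMM normalization, the filterByExpr filter on groups (17191 of 58735 genes), and a quasi-likelihood F test with one mean for each of 14 groups over all 28 libraries (14 residual degrees of freedom), adjusted by Benjamini-Hochberg over all genes tested at 0.05. Standard errors were the log2 fold change divided by the square root of F. The fit was also run on simulated counts, with changes and a GC trend set only in the attached Tpm2.1 libraries. Its outcome is not reported here, and it does not cover the apoptotic 4-day libraries. CPM values are counts scaled to the TMM-normalized library size, and levels between genes are compared only in the deposited FPKM. With 2 libraries a group, precision rests on the spread shared over groups.

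Every count of calls was recomputed with DESeq2 1.42.0, with edgeR under the size factors of DESeq2, without the filter, on protein-coding genes, on only the libraries a contrast compares, after removal of the trend with GC content (lowess, span 0.2), with a replicate block, and without each library in turn. A fit without both apoptotic 4-day libraries was added after seeing the data. No shared deviation of same-numbered libraries was seen: over 91 pairs of groups, their deviations correlated at -0.0751 to 0.0541. Whether same-numbered libraries, such as both fractions at a given time, came from a shared culture is not stated. The 38 genes, the other gene lists and the roles were chosen with earlier results of these data known. Values in every library are given for the gene with the highest mean FPKM of each role and for those with the largest and smallest change in each kind of comparison. Genes outside the 38 are named where they had the smallest p of their list, apart from TPM2 and cell type markers.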

Additional observations from a re-analysis of the deposited data

Results flagged for a closer look

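The change with suspension differed between non-apoptotic Tpm2.1 and EV cells, by the interaction term of the fit, in 26 of the 38 genes at 5 hours, in 12 after 1 day, in 25 after 2 days and in 36 after 4 days (edgeR quasi-likelihood test, adjusted p under 0.05). Of all tested genes, 15.0% and 13.8% passed as positive and negative at 5 hours, 13.5% and 13.2% at 1 day, 18.3% and 16.1% at 2 days and 12.8% and 15.6% at 4 days, so the 12 at 1 day lie near the share of all genes. The direction was mostly towards a smaller fall in Tpm2.1 cells at 5 hours (22 of the 26) and 2 days (21 of the 25) and towards a larger fall in all 36 at 4 days. Fractions were separated in the Tpm2.1 cultures and not, as far as stated, in the EV cultures, so the line and the separation cannot be told apart.

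The difference between the apoptotic and non-apoptotic fractions was itself different at 4 days from its mean over 5 hours, 1 day and 2 days in 33 of the 38 genes, with 24 relatively higher in the apoptotic fraction and 9 lower, where 33.2% and 36.4% of all tested genes passed in these directions. With the trend with GC content removed, 25 passed (10 higher, 15 lower). The shares of all tested genes above are those before that removal, so this split has no share beside it.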

How the results depend on the processing

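The falls from attached cells in EV cells at all 4 times and in non-apoptotic Tpm2.1 cells at all 4 times, and the lower values in non-apoptotic than in EV cells at 4 days, kept their direction and stayed within 1.5 times their count under every alternative run. The 12 interaction calls at 1 day (5 higher, 7 lower) were 15 (8 higher, 7 lower) with DESeq2 and with its size factors, 14 (8 and 6) with no filter, and 14 (8 and 6) without both apoptotic 4-day libraries. The 31 fraction calls at 4 days (22 higher, 9 lower) were 28 (10 and 18), and the 33 calls for the 4-day difference minus the earlier mean were 25 (10 and 15), with the trend with GC content removed. With the libraries of the contrast alone, the 9 attached calls were 18, the 9 fraction calls at 2 days were 4 and the 9 calls from 1 to 2 days in non-apoptotic cells were 4, with fewer libraries behind the spread. The 3 calls from 1 to 2 days in apoptotic cells were 5 without both apoptotic 4-day libraries, a setting that gives no value for comparisons that hold them. Leaving out single libraries gave 5 to 6 attached calls, 3 to 9 fraction calls at 2 days, 6 to 10 interaction calls at 1 day and 3 to 8 calls from 1 to 2 days in non-apoptotic cells. The cause of these shifts was not tested. Same-numbered libraries showed no shared deviation (0 of 91 pairs of groups above a correlation of 0.1). With the replicate block the counts were 8 for attached cells and 21 and 10 for fractions at 5 hours and 2 days. They were 13 for the interaction at 1 day, 31 from 1 to 2 days in EV cells and as before elsewhere.

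Removing the trend with GC content turned the sign of single genes in comparisons that hold the apoptotic 4-day libraries. In the fractions at 4 days the removal also moved the median over all genes to -0.30. There 15.9% of all tested genes were called higher and 43.0% lower. Relative to that median CDC25B (0.47), HMMR (0.27), DLGAP5 (0.22), KIF11 (0.07), BUB1 (0.06), TOP2A (0.04) and NDC80 (0.03) lay above it. CCNB1, CCNB2, CDK1, BUB3, MAD2L1 and ECT2 lay below it. All-gene values after the removal are not given here for the other comparisons. In the fractions at 4 days the log2 fold changes became -0.82 for CCNB1, -0.51 for CCNB2, -1.10 for CDK1, 0.16 for CDC25B, -0.25 for BUB1, -0.62 for BUB3, -1.11 for MAD2L1, -0.27 for NDC80, -0.23 for KIF11, -0.035 for HMMR, -0.08 for DLGAP5, -0.44 for ECT2 and -0.26 for TOP2A. In the 4-day difference minus the earlier mean they became -0.63 for CCNB1, -0.30 for CCNB2, -1.03 for CDK1, 0.18 for CDC25B, 0.13 for PLK1, 0.081 for FOXM1, -0.093 for BUB1, -0.61 for BUB3, -0.94 for MAD2L1, -0.15 for NDC80, -0.20 for KIF11, -0.38 for ECT2 and -0.17 for TOP2A. From 2 to 4 days in apoptotic cells they became -0.67 for BUB3, -1.11 for CENPE and -1.19 for ECT2.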

Other observations

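The 30 genes of G1/S and replication also set the lines apart. Their change with suspension in non-apoptotic Tpm2.1 cells minus that in EV cells was positive in 23 and negative in none at 5 hours, and negative in 28 and positive in none at 4 days (edgeR quasi-likelihood test, adjusted p under 0.05), and at 1 and 2 days it was positive in 4 and 14 and negative in 1 and none. Of all tested genes, 15.0%, 13.5%, 18.3% and 12.8% passed as positive and 13.8%, 13.2%, 16.1% and 15.6% as negative at the 4 times in order. In attached cells 1 of the 30 was higher and 8 were lower in Tpm2.1 than in EV cells (10.4% and 10.1% of all tested genes). Between the fractions at 4 days 12 were higher and 13 lower in apoptotic cells. Of the 17 genes for DREAM, MuvB and NF-Y 11 were higher and 3 lower in apoptotic than in non-apoptotic cells at that time, and of the 13 for the anaphase-promoting complex 7 were higher and 4 lower. In this comparison 35.3% of all tested genes were called higher and 36.8% lower. With the trend with GC content removed, 3 genes of G1/S and replication were higher and 20 lower, 3 and 9 of those for DREAM, MuvB and NF-Y, and 2 and 8 of those for the complex, against 15.9% and 43.0% of all tested genes. These comparisons share the 4-day apoptotic libraries that stand apart.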
